A study of Mus musculus with 6 samples.

Results

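The 10 genes described here encode mucosal defence proteins of the gut surface: the dual oxidase Duox2, its maturation factor Duoxa2, the oxidase Nox1, the C-type lectins Reg3b and Reg3g, the lysozymes Lyz1 and Lyz2, the ribonuclease Ang4, the scavenger receptor cysteine-rich glycoprotein Dmbt1 and the polymeric immunoglobulin receptor Pigr. They were taken by symbol from a table of 39179 genes, and all 10 symbols were found, each on 1 row. RNA was sequenced from mouse pylorus, where the stomach meets the small intestine, in 3 Sox2 KO and 3 Sox2 WT libraries. Sox2 KO mice carried Rosa26CreER, a tamoxifen-activated Cre recombinase at a broadly expressed locus, with floxed Sox2 alleles (Sox2 fl/fl). Sox2 WT mice had the same floxed alleles and an unmodified Rosa26 locus. Mice of both groups, on a mixed C57BL/6 x 129 background, received tamoxifen at 8 weeks of age. Stomachs were taken 2 weeks later, at 10 weeks by the series text, while the sample labels give the age as 8 weeks. The muscle layer was peeled off after a cold incubation, so each library holds epithelium and mesenchyme together, and fewer cells of a type cannot be told apart from less RNA per cell.

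These proteins keep microbes off an epithelium by different routes. Dual oxidases release hydrogen peroxide at the apical membrane and need a partner protein to leave the endoplasmic reticulum. REG3 lectins, lysozymes and angiogenins act on bacteria directly, DMBT1 binds and aggregates them, and PIGR carries dimeric IgA made by plasma cells across the epithelium. In the intestine Reg3b, Reg3g, Duox2 and Duoxa2 are known to be induced by microbes and by interleukin 22 or interleukin 17.

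Sox2, the deleted gene, averaged 0.324 ± 0.106 RPKM (reads scaled to gene length and library depth) in Sox2 KO libraries and 10.3 ± 1.13 RPKM in Sox2 WT libraries (SD, n = 3 each). Whole reads recovered from the RPKM numbered 29661961 to 32455361 in Sox2 KO libraries and 21923203 to 27432691 in Sox2 WT libraries. By Xist and the Y-linked gene Ddx3y, 0 of the 3 Sox2 KO libraries and 2 of the 3 Sox2 WT libraries came from females, so sex and genotype moved together, and Nox1 lies on the X chromosome. Stomach markers were present in every library. The summed surface mucous markers Muc5ac, Tff1, Gkn1 and Gkn2 ran from 100000 to 158000 RPKM in Sox2 KO and from 88400 to 151000 RPKM in Sox2 WT. Of the 4 Paneth cell markers, Defa24, Defa17 and Defa5 were listed at 0 in all 6 libraries and Mmp7 was at most 0.0324 RPKM in Sox2 KO and 0.101 RPKM in Sox2 WT. Whether the libraries came from different animals is not stated, so p-values measure the spread between libraries. Library numbers are the replicate numbers of the labels.

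Duox2 and Duoxa2 lie head to head on chromosome 2 and moved together across the libraries, so the windows before their start sites are shown first. In RefSeq (GRCm38.p6) the start sites are 673 bases apart on opposite strands, and in GENCODE M21, whose Duox2 transcript starts farther upstream, 451 bases apart. Each window runs from 250 bases before to 50 bases after the RefSeq start, 5′ to 3′ on the gene's own strand. Duox2 is at chr2:122298178-122298477, minus strand, and Duoxa2 at chr2:122298650-122298949, plus strand. Capitals mark matches, on either strand, to the TATA box TATAAA, the CCAAT box, the GC box GGGCGG, a STAT-type site TTCNNNGAA and the SOX-family cores ACAATG and ACAAAG.
Duox2: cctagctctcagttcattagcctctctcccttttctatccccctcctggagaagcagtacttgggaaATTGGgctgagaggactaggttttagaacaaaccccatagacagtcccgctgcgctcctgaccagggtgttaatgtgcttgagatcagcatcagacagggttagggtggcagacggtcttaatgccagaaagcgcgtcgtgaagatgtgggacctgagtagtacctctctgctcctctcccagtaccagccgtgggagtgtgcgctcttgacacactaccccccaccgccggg
Duoxa2: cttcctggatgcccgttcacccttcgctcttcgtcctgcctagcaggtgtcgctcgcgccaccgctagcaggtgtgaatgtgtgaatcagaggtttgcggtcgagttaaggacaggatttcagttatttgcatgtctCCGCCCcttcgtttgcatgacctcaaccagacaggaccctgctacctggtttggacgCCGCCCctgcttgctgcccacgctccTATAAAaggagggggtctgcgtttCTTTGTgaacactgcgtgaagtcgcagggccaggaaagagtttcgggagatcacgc
The Duox2 window held 1 match, a CCAAT box, which 37.4% of the 32851 RefSeq promoter windows also hold. The GENCODE start of Duox2, at 122298449, lies inside that window near its upstream edge. Most of the window is thus downstream of that start, and the bases between both windows were not searched. The Duoxa2 window held a TATAAA 30 bases before the start (13.6% of all windows), 2 GC boxes (35.7%) and 1 ACAAAG that begins 6 bases before the start (18.7%). No matches overlapped in either window. Neither held TTCNNNGAA, found in 8.30% of all windows, or ACAATG, found in 12.6%. The Duoxa2 window had 19 CG dinucleotides and the Duox2 window 10, against a median of 7 over all windows.

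Of the 10 genes, 8 had a mean of at least 0.5 RPKM over the 6 libraries and entered the test, and 0 of the 8 passed. The test was limma on log2(RPKM + 0.5) over 14045 genes with Benjamini-Hochberg adjustment and a threshold of 0.05. It called 0.0285% of all genes, 4 in all. Each of the 8 had a limma adjusted p = 1.00. An unadjusted p under 0.05 was reached by 0 of the 8, against 3.15% of all genes. Each log2 fold change subtracts Sox2 WT from Sox2 KO on log2(RPKM + 0.5), which understates the change of low genes. They were positive for 4 and negative for 4 of the tested genes, with a median of 0.17 beside 0.02 over all genes tested (0.01 and -0.14 when libraries were centred on epithelial markers). The median of the 8 rested on single libraries, at -0.07 without Sox2 WT replicate 2, 0.40 without Sox2 WT replicate 3 and 0.31 without Sox2 KO replicate 3. Reg3b and Lyz1 are near the filter at means of 0.683 and 0.536 RPKM, Reg3b mainly through its Sox2 KO values and Lyz1 through its Sox2 WT values. With 3 libraries a group, the two-sided exact permutation test has a smallest p of 0.1.

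**Figure D1:**
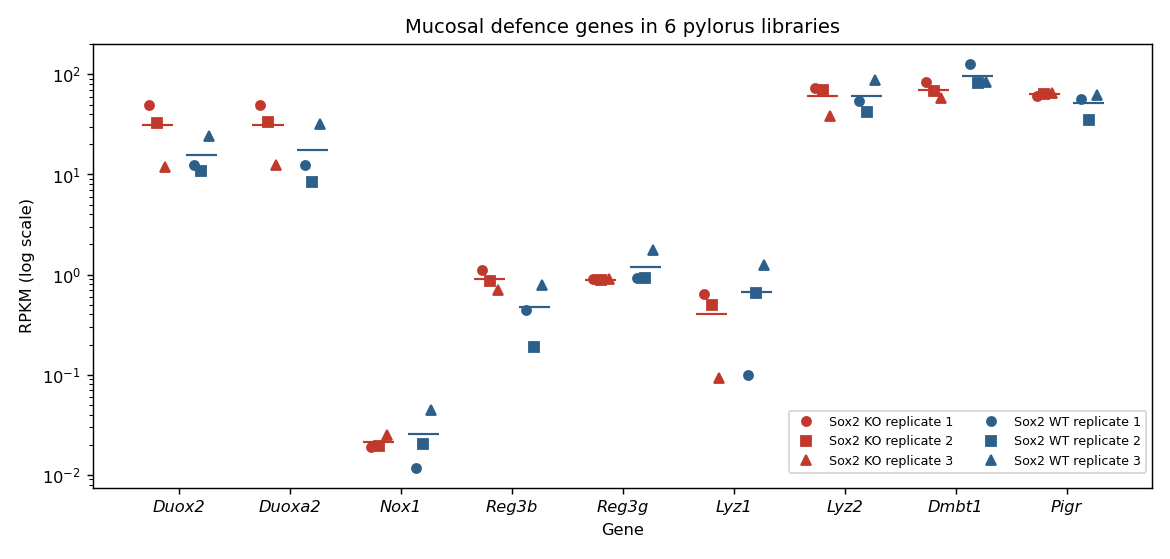
RPKM (log axis) of 9 of the 10 mucosal defence genes, with 1 point per library, a different symbol per replicate number and a bar at the group mean, Sox2 KO left of Sox2 WT. Ang4, at 0 in every library, is not drawn; the groups overlap for each gene drawn except Reg3g, whose Sox2 KO points lie just under the lowest Sox2 WT point at 0.920 RPKM.

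Duox2, the dual oxidase that makes hydrogen peroxide at mucosal surfaces, varied widely between libraries of the same group. It was at 49.1, 32.9 and 12.0 RPKM in Sox2 KO libraries 1 to 3, and at 12.5, 10.7 and 24.1 RPKM in Sox2 WT libraries 1 to 3. Sox2 KO replicates 1 and 2 and Sox2 WT replicate 3 were high and the other 3 libraries low, so the groups overlapped. The means were 31.3 ± 18.6 RPKM in Sox2 KO and 15.8 ± 7.24 RPKM in Sox2 WT (SD, n = 3 each). The log2 fold change of Duox2 was 0.84 (95% interval -0.36 to 2.05, limma adjusted p = 1.00; exact permutation p = 0.3). Between 1844 and 8979 reads stood behind each value, so counting error was small beside the spread between libraries.

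Duoxa2, which carries the oxidase to the cell surface, followed the same order of libraries with a single exchange. Its level was 48.9, 33.2 and 12.5 RPKM in Sox2 KO libraries 1 to 3 and 12.3, 8.48 and 31.9 RPKM in Sox2 WT libraries 1 to 3. The same 3 libraries were high and the groups overlapped again. The log2 fold change was 0.85 (95% interval -0.55 to 2.24, limma adjusted p = 1.00; exact permutation p = 0.2). In the annotation Duoxa2 overlaps Duoxa1 on the other strand, but Duoxa1 was at most 0.0568 RPKM in Sox2 KO and 0.0350 RPKM in Sox2 WT. Without Sox2 KO replicate 1 the log2 fold changes of Duox2 and Duoxa2 were 0.41 and 0.43, and without Sox2 KO replicate 3 they were 1.41 and 1.40, with no adjusted p under 0.05 in either case. Duoxa2 was at 0.45 without Sox2 WT replicate 2 and 1.38 without Sox2 WT replicate 3.

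Per length the oxidase and its partner were at nearly the same level. The ratio of Duox2 RPKM to Duoxa2 RPKM was 1.00, 0.990 and 0.958 in Sox2 KO libraries 1 to 3 and 1.02, 1.26 and 0.755 in Sox2 WT libraries 1 to 3. The highest ratio was 1.67 times the lowest, while Duox2 itself ranged 4.58-fold and Duoxa2 5.77-fold. On the log2 scale the ratio had an SD of 0.237 over the 6 libraries, against 0.903 for Duox2 and 1.01 for Duoxa2. As a description over 6 libraries of both groups, Pearson r of the pair on the log2(RPKM + 0.5) scale was 0.976 and Spearman rho 0.943, and r was 0.987 without the 2 libraries farthest from the median of Duox2. Duoxa2 ranked 9 of 14044 other genes by r with Duox2, and Duox2 ranked 20 by r with Duoxa2.

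The pair was high in the libraries where the sum of surface mucous markers was high, and other marker sums moved with it too. The summed surface mucous markers were 158000, 124000 and 100000 RPKM in Sox2 KO libraries 1 to 3 and 92100, 88400 and 151000 RPKM in Sox2 WT libraries 1 to 3. Nearly all of this sum was Tff1, Gkn1 and Gkn2. Muc5ac was at 1220, 687 and 479 RPKM in Sox2 KO and 845, 613 and 1130 RPKM in Sox2 WT. It did not split the libraries in the same way, since Sox2 WT replicate 1 lay above Sox2 KO replicate 2. Pearson r with the surface mucous sum over the 6 libraries, on the log2 scale, was 0.902 for Duox2 and 0.957 for Duoxa2, a description with no test. For the neutrophil sum, nearly all of it the single gene Retnlg, r was 0.891 with Duox2 and 0.866 with Duoxa2. For goblet markers r was 0.783 and 0.828, and for macrophage markers 0.743 and 0.798. The 4 surface mucous markers overlapped between the groups, with 0 of 4 called and a median log2 fold change of 0.21. Summed epithelial markers (Epcam, Krt8, Krt18 and Cdh1) were at 2790 to 2920 RPKM in Sox2 KO and 2030 to 3330 RPKM in Sox2 WT. The part of any of these cell types in the values of the pair was not tested.

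**Figure D2:**
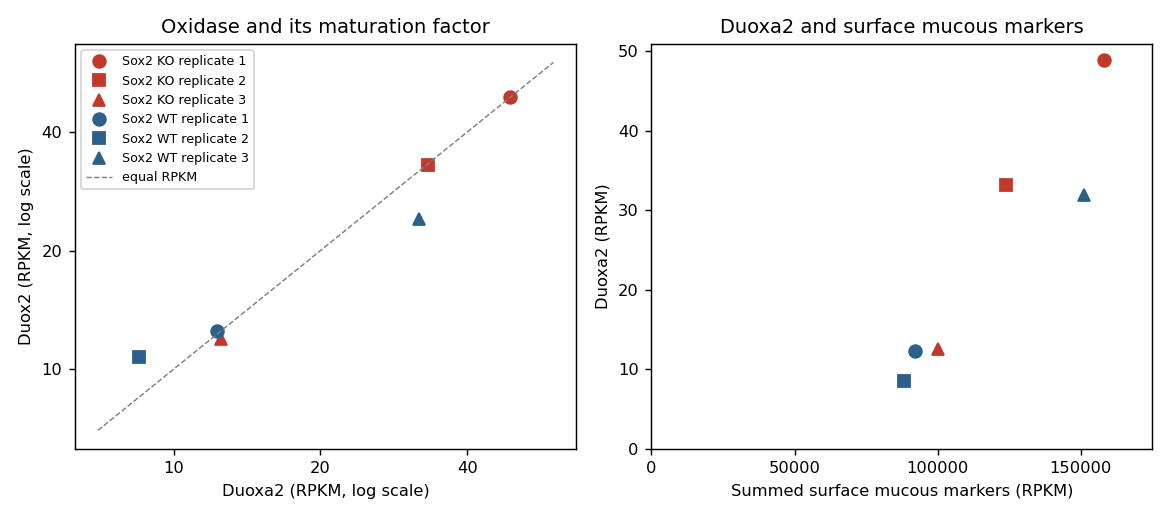
Left, Duox2 against Duoxa2 (RPKM, both axes log), 1 point per library, with a dashed line at equal RPKM; right, Duoxa2 (RPKM) against the summed surface mucous markers (RPKM). Sox2 KO replicates 1 and 2 and Sox2 WT replicate 3 lie at the upper right of both panels, and the other 3 libraries at the lower left, with Duoxa2 at 12.5 RPKM or less.

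Nox1, the catalytic oxidase of colon epithelium, was barely detected. It was at 0.0191, 0.0196 and 0.0252 RPKM in Sox2 KO libraries 1 to 3, from 2, 2 and 3 reads, and at 0.0118, 0.0203 and 0.0447 RPKM in Sox2 WT libraries 1 to 3, from 1, 2 and 4 reads. Both groups summed to 7 reads (exact Poisson 95% interval 2.81 to 14.4, counting error only), so a difference was not detectable at this depth. In the annotation Nox1 overlaps Arl13a, Cstf2 and Xkrx, of which Cstf2 averaged 6.12 RPKM in Sox2 KO and 6.19 RPKM in Sox2 WT.

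The partners of Nox1 were present although Nox1 itself was near 0. Noxo1, its organizer subunit, was at 5.95, 7.16 and 7.68 RPKM in Sox2 KO libraries 1 to 3 and 3.92, 4.57 and 4.87 RPKM in Sox2 WT libraries 1 to 3. Noxa1, its activator subunit, was at 18.7, 19.6 and 17.9 RPKM in Sox2 KO and 13.8, 12.5 and 15.7 RPKM in Sox2 WT. The Sox2 KO values of both lay above all Sox2 WT values, at log2 fold changes of 0.58 (SE 0.134) and 0.41 (SE 0.114), but neither passed (limma adjusted p = 0.611 for Noxo1 and 0.908 for Noxa1). Cyba, the membrane subunit shared by several NADPH oxidases, was at 54.0, 52.3 and 63.3 RPKM in Sox2 KO and 45.7, 41.2 and 48.4 RPKM in Sox2 WT, with a log2 fold change of 0.32 (limma adjusted p = 1.00). These 3 were the members of the oxidase list without overlap between the groups, 3 of 11 tested and each with Sox2 KO above, against 4.09% of all genes with Sox2 KO above. Cyba was chosen to complete that count after its values were seen.

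The whole list of 16 NADPH oxidase subunits and maturation factors had 11 tested members, of which 0 passed. All 11 lay above 0 in log2 fold change (median 0.32), beside 56.8% of all genes tested and a median of 0.02. The count was 11 under median-of-ratios and quantile scaling and 9 when libraries were centred on epithelial markers, where 15.6% of all genes were positive. The count was 10 without Sox2 KO replicate 2 and 10 without Sox2 WT replicate 2, beside 57.5% and 55.7% of all genes. An unadjusted p under 0.05 was reached by 4 of the 11, against 3.15% of all genes. These were Noxo1, Noxa1, Cyba and Rac2, a small GTPase of blood cells (log2 fold change 0.62, SE 0.217, limma adjusted p = 1.00). The phagocyte oxidase genes Cybb, Ncf1 and Ncf4 were low, at 0.871 to 2.59 RPKM in Sox2 KO and 0.808 to 2.32 RPKM in Sox2 WT. Duox1, the other dual oxidase, reached at most 0.122 RPKM in Sox2 KO and 0.0599 RPKM in Sox2 WT, so Duox2 was the main dual oxidase transcript of these samples. Nox3 was listed at 0 in all 6 libraries.

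**Figure D3:**
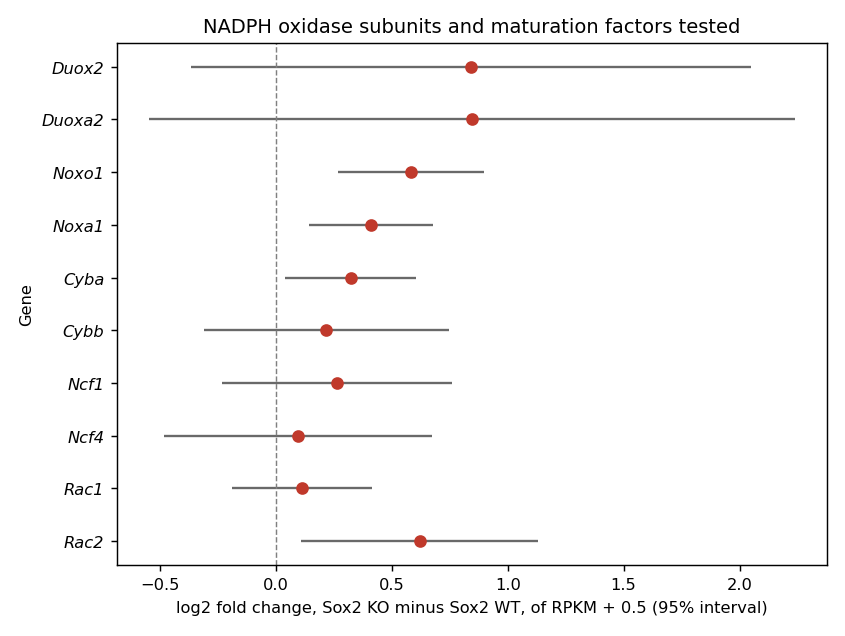
Log2 fold change (Sox2 KO minus Sox2 WT, from RPKM + 0.5) of 10 of the 11 tested NADPH oxidase subunits and maturation factors, with the 95% interval of each gene from limma, not adjusted for the number of genes. All 10 points lie right of 0; the widest intervals belong to Duox2 and Duoxa2, and 0 of the 10 passed after adjustment over all genes.

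Enzymes that remove or use hydrogen peroxide did not pass. Of 17 listed, 13 were tested and 11 lay above 0 in log2 fold change (median 0.07), beside 56.8% of all genes tested. Under quantile normalization 5 of 13 did, beside 47.4% of all genes, and under epithelial scaling 3 of 13, beside 15.6%. The peroxiredoxins with the smallest p were Prdx4 (log2 fold change 0.54, SE 0.217), Prdx6 (-0.27, SE 0.134) and Prdx1 (0.25, SE 0.157), each with a limma adjusted p = 1.00. The peroxidases Lpo and Mpo were at most 0.0110 RPKM in Sox2 KO and 0.0265 RPKM in Sox2 WT, and Epx was listed at 0 in all 6 libraries.

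Reg3b and Reg3g, bactericidal lectins that are abundant in the small intestine, were low here. Their means over the 6 libraries were 0.683 and 1.05 RPKM. Reg3b was at 1.11, 0.868 and 0.705 RPKM in Sox2 KO libraries 1 to 3, from 25, 19 and 18 reads, and at 0.440, 0.189 and 0.781 RPKM in Sox2 WT libraries 1 to 3, from 8, 4 and 15 reads. Only Sox2 KO replicate 3 and Sox2 WT replicate 3 stood in the way of separate groups. The log2 fold change of Reg3b was 0.56 (95% interval -0.01 to 1.14, limma adjusted p = 1.00; exact permutation p = 0.2), and 0.34 without Sox2 WT replicate 2, which had 4 reads. Over the 3 libraries of a group, Reg3b had 62 reads in Sox2 KO (exact Poisson 95% interval 47.5 to 79.5) and 27 reads in Sox2 WT (17.8 to 39.3). The intervals cover counting error only. These totals are not scaled to depth, which was higher in each Sox2 KO library than in any Sox2 WT library.

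Reg3g went the other way, with a small difference. It was at 0.894, 0.891 and 0.895 RPKM in Sox2 KO libraries 1 to 3 and at 0.920, 0.924 and 1.77 RPKM in Sox2 WT libraries 1 to 3. The groups did not overlap, but the highest Sox2 KO value, from 41 reads, was close to the lowest Sox2 WT value, from 30 reads, and Sox2 WT replicate 3 alone stood clearly above the rest. Reg3g had a log2 fold change of -0.25 (95% interval -0.73 to 0.22, limma adjusted p = 1.00), and -0.03 without Sox2 WT replicate 3. It was the 1 gene of the 8 tested whose groups did not overlap, against 7.08% of all genes, or 2.99% with Sox2 KO below.

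The lectins were also set against each other, as a description, since this ratio was chosen after its values were seen and Reg3b passed the filter through its Sox2 KO values. The ratio of Reg3b RPKM to Reg3g RPKM was 1.25, 0.974 and 0.788 in Sox2 KO libraries 1 to 3 and 0.478, 0.205 and 0.441 in Sox2 WT libraries 1 to 3. These ratios rest on few Reg3b reads, 25, 19 and 18 in Sox2 KO and 8, 4 and 15 in Sox2 WT. No constant was added to the RPKM before the ratio. On the log2 scale the ratio was 1.49 higher in Sox2 KO (mean -0.02 ± 0.331 in Sox2 KO and -1.51 ± 0.675 in Sox2 WT, SD, n = 3 each). Without any 1 library the difference ran from 1.10 to 1.71, and it was 1.04 against the 1 male Sox2 WT library. Summed goblet markers did not overlap between the groups, although 0 of 6 tested were called: they were 4320, 4080 and 3210 RPKM in Sox2 KO libraries 1 to 3 and 1880, 1110 and 2830 RPKM in Sox2 WT libraries 1 to 3. The sum was mainly Clca3, at 3240, 2830 and 1730 RPKM in Sox2 KO and 517, 131 and 1010 RPKM in Sox2 WT, and Agr2. Agr2 went the other way, at a log2 fold change of -0.48, and the other 5 tested lay above 0. Singly, 2 of the 6 tested had no overlap, Clca3 and Spink4, against 7.08% of all genes. The part of goblet markers in the ratio was not tested. The coding sequences of Reg3b and Reg3g are 76.0% identical in GENCODE M21 and share no stretch of 50 bases. Coding reads of at least 50 bases can thus be told apart. Shorter stretches and untranslated bases were not compared.

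**Figure D4:**
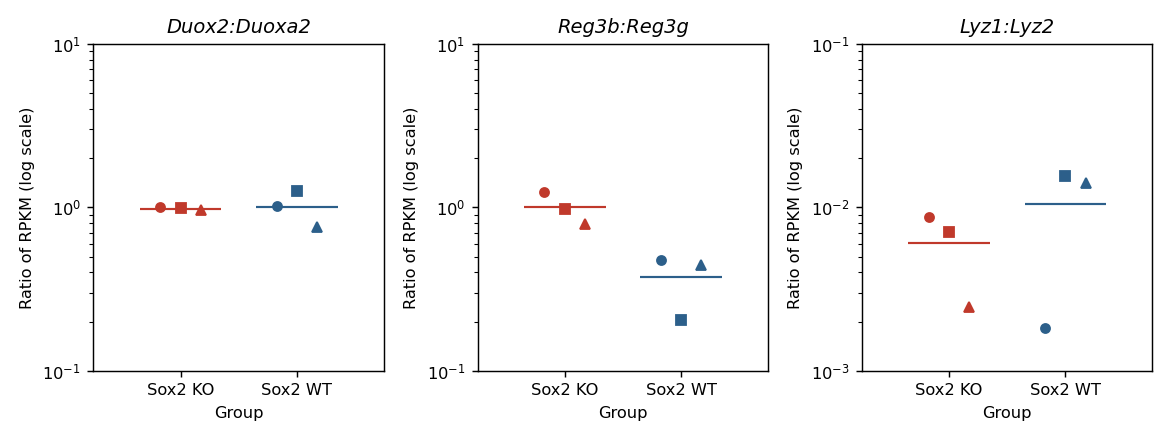
Ratio of RPKM (log axis) between partner genes in each library, Sox2 KO left of Sox2 WT, with 1 symbol per replicate number and a bar at the group mean; the panel for the lysozymes has its own scale. The ratio of Duox2 to Duoxa2 stays between 0.755 and 1.26, the 3 Sox2 KO ratios of Reg3b to Reg3g lie above the 3 Sox2 WT ratios, and the ratio of Lyz1 to Lyz2 overlaps between the groups.

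Other REG family genes were low or at 0. Reg1 was at 1.06 to 1.98 RPKM in Sox2 KO and 1.54 to 2.20 RPKM in Sox2 WT (log2 fold change -0.24, SE 0.206, limma adjusted p = 1.00). Reg2, Reg3a and Reg3d were listed at 0 in all 6 libraries, and Reg4 had a value in Sox2 WT replicate 1 alone, at 0.0408 RPKM. Of the 7 genes listed, 3 were tested and 0 passed.

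The lysozymes cleave the peptidoglycan of bacterial walls; in the mouse Lyz1 is known from Paneth cells and Lyz2 from macrophages and other myeloid cells. Their genes lie 10547 bases apart, start to start, on the minus strand of chromosome 10, and their coding sequences of 444 bases each differ at 22 positions. The first 60 coding bases (GENCODE M21) are shown as an example of how alike the genes are; capitals mark the bases that differ.
Lyz1: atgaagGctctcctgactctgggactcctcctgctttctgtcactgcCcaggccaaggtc
Lyz2: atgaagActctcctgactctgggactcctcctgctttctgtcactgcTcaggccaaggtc
Of the windows of 50 bases in the Lyz1 coding sequence, 20.3% also occur in Lyz2, and 5.51% of windows of 100 bases. How the authors' counting assigned such reads is not given in the sources used here.

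Lyz2 was abundant and its groups overlapped fully. It was at 73.0, 69.5 and 38.4 RPKM in Sox2 KO libraries 1 to 3 and at 53.6, 41.8 and 87.7 RPKM in Sox2 WT libraries 1 to 3. The means were 60.3 ± 19.1 RPKM in Sox2 KO and 61.0 ± 23.9 RPKM in Sox2 WT (SD, n = 3 each), and the 95% interval of the log2 fold change was -0.78 to 0.77 (limma adjusted p = 1.00). Macrophage markers were also lowest in Sox2 KO replicate 3 and Sox2 WT replicate 2: the 11 markers summed to 98.5, 88.1 and 68.3 RPKM in Sox2 KO libraries 1 to 3 and 91.7, 63.4 and 93.9 RPKM in Sox2 WT libraries 1 to 3, with 0 of 11 called. Pearson r of Lyz2 over the 6 libraries was 0.868 with that sum and 0.869 with the surface mucous sum on the log2 scale, so these values do not tell the sources apart. The 7 neutrophil markers summed to 5.98 to 14.2 RPKM in Sox2 KO and 4.51 to 7.41 RPKM in Sox2 WT, nearly all of it Retnlg, with an r of 0.680 with Lyz2. Among them Elane and Ly6g were listed at 0 in all 6 libraries.

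Lyz1 was far lower, at 0.639, 0.491 and 0.0936 RPKM in Sox2 KO libraries 1 to 3, from 24, 18 and 4 reads. In Sox2 WT libraries 1 to 3 it was at 0.0986, 0.651 and 1.24 RPKM, from 3, 23 and 40 reads. Sox2 KO replicate 3 and Sox2 WT replicate 1 were low, so the groups overlapped (log2 fold change -0.28, 95% interval -1.25 to 0.69, limma adjusted p = 1.00). The ratio of Lyz1 RPKM to Lyz2 RPKM was 0.00876, 0.00707 and 0.00244 in Sox2 KO and 0.00184, 0.0156 and 0.0142 in Sox2 WT. It spanned 8.48-fold, so Lyz1 was not a fixed share of Lyz2.

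Ang4, an angiogenin ribonuclease of Paneth and goblet cells in the mouse intestine, had 0 reads in all 6 libraries. At its annotated exon length of 709 bases, the 3 reads that a count of 0 allows would be 0.126 to 0.147 RPKM in Sox2 KO libraries and 0.152 to 0.176 RPKM in Sox2 WT libraries. Other genes of that family were present. Ang was at 6.15 to 13.9 RPKM in Sox2 KO and 7.18 to 11.9 RPKM in Sox2 WT. Rnase4 was at 79.8 to 166 RPKM in Sox2 KO and 88.8 to 160 RPKM in Sox2 WT, with a log2 fold change of 0.05 (SE 0.314) whose sign turned under quantile normalization and epithelial scaling. Of the 10 genes listed, 9 were found and 5 tested, 0 passed, and the median log2 fold change was 0.05. Rnase6 (0.55, SE 0.183) and Rnase1 (0.39, SE 0.819) had a limma adjusted p = 1.00, and Ang2 and Ang5 were also listed at 0 throughout.

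Dmbt1, a secreted glycoprotein that binds bacteria, was the most abundant of the 10 genes by mean RPKM, above 96.0% of all genes tested. It was at 84.8, 68.6 and 57.9 RPKM in Sox2 KO libraries 1 to 3 and at 126, 81.6 and 83.2 RPKM in Sox2 WT libraries 1 to 3. Sox2 WT replicate 1 was the highest library, and Sox2 KO replicate 1 lay within the Sox2 WT values. Dmbt1 had a log2 fold change of -0.45 (95% interval -0.95 to 0.05, limma adjusted p = 1.00; exact permutation p = 0.3). With sex as a covariate, which sets Sox2 KO against the 1 male Sox2 WT library, it was -0.86 (limma adjusted p = 0.999), and it was -0.24 without Sox2 WT replicate 1. In the annotation Dmbt1 overlaps Fgfr2 on the other strand, which averaged 6.34 RPKM in Sox2 KO and 7.16 RPKM in Sox2 WT.

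Pigr, the IgA transporter, was steady apart from 1 library. It was at 61.1, 63.8 and 65.0 RPKM in Sox2 KO libraries 1 to 3 and at 57.1, 34.8 and 62.0 RPKM in Sox2 WT libraries 1 to 3. Sox2 WT replicate 2 stood below the other 5 libraries, and Sox2 KO replicate 1 lay under Sox2 WT replicate 3, so the groups overlapped. For Pigr the log2 fold change was 0.34 (95% interval -0.15 to 0.84, limma adjusted p = 1.00) and 0.09 without Sox2 WT replicate 2. That library also had the highest parietal markers, at 2620 RPKM against 344 to 1340 RPKM in the other 5, and the lowest summed epithelial markers, at 2030 RPKM.

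Genes of IgA production varied between libraries as well. Igha, the IgA heavy chain, was at 291, 301 and 151 RPKM in Sox2 KO libraries 1 to 3 and 254, 220 and 206 RPKM in Sox2 WT libraries 1 to 3. Igj, the chain that joins IgA dimers, was at 15.9 to 36.5 RPKM in Sox2 KO and 24.1 to 26.4 RPKM in Sox2 WT, lowest in Sox2 KO replicate 3, where Pigr was at its highest. Of the 14 names in the IgA list 13 genes were found, 11 were tested and 0 passed. Of the 11, 9 lay above 0 in log2 fold change (median 0.08), beside 56.8% of all genes tested. Under epithelial scaling 4 did, beside 15.6% of all genes. The genes with the smallest p were the B-cell survival factors Tnfsf13 (log2 fold change 0.31, SE 0.164) and Tnfsf13b (-0.29, SE 0.163) and the B-cell coactivator Pou2af1 (0.26, SE 0.152), each with a limma adjusted p = 1.00.

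**Figure D5:**
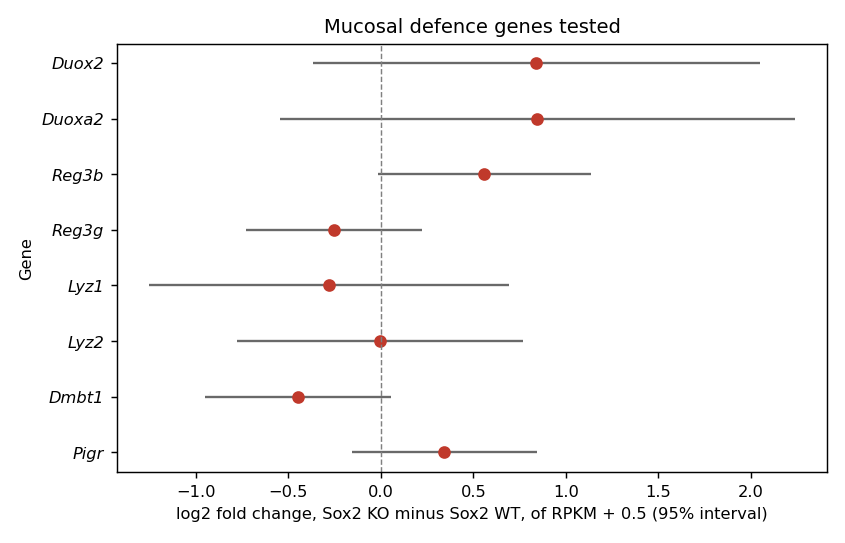
Log2 fold change (Sox2 KO minus Sox2 WT, from RPKM + 0.5) of the 8 mucosal defence genes tested, with the 95% interval of each gene from limma, not adjusted for the number of genes. Each interval includes 0; that of Duoxa2, from -0.55 to 2.24, is the widest.

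Other antimicrobial genes of the mucosa held the largest differences near these 10. Of 25 listed, 9 were tested and 0 passed. Of the 9, 8 lay above 0 in log2 fold change (median 0.62), beside 56.8% of all genes tested, and 7 did under epithelial scaling, beside 15.6%. The groups did not overlap in 4 of the 9, Itln1, Zg16, Pglyrp1 and Slpi, against 7.08% of all genes. Slpi passed the filter through its Sox2 KO values, so its place in both counts is partly set by the filter. Itln1, a lectin of goblet and Paneth cells, was at 57.4, 266 and 177 RPKM in Sox2 KO libraries 1 to 3 and 3.03, 3.34 and 6.68 RPKM in Sox2 WT libraries 1 to 3. Zg16, a goblet cell lectin, was at 930, 742 and 381 RPKM in Sox2 KO and 89.0, 22.0 and 27.9 RPKM in Sox2 WT. Their log2 fold changes were 4.93 (SE 0.549) and 4.06 (SE 0.547). Itln1 and Zg16 had limma adjusted p-values of 0.0577 and 0.127, so they did not pass. Itln1 passed without Sox2 KO replicate 1 (limma adjusted p = 0.00513), under epithelial scaling and at an adjusted p under 0.1. Zg16 passed without Sox2 WT replicate 1 (limma adjusted p = 0.0353), under epithelial scaling and with voom on recovered reads (limma adjusted p = 0.0386). In the other 17 of 20 alternatives each stayed uncalled. Under epithelial scaling the SE was smaller, at 0.366 for Itln1 and 0.386 for Zg16. With sex as a covariate, which sets Sox2 KO against the 1 male Sox2 WT library, the log2 fold changes were 5.31 for Itln1 and 2.84 for Zg16.

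Pglyrp1, a peptidoglycan recognition protein, was at 92.1, 108 and 142 RPKM in Sox2 KO libraries 1 to 3 and 72.0, 71.9 and 74.1 RPKM in Sox2 WT libraries 1 to 3. All 3 Sox2 KO values lay above Sox2 WT (log2 fold change 0.62, SE 0.165, limma adjusted p = 0.838). Slpi, a protease inhibitor with antibacterial activity, was at 2.20, 0.753 and 0.868 RPKM in Sox2 KO and 0.406, 0.323 and 0.296 RPKM in Sox2 WT (log2 fold change 0.99, SE 0.290, limma adjusted p = 1.00); it is named because it completes the count of 4. Lypd8, which coats flagella in the colon, was the most abundant gene of this list by mean, at 459 to 1390 RPKM in Sox2 KO and 532 to 819 RPKM in Sox2 WT. Lcn2, a siderophore-binding protein, was at most 0.200 RPKM in Sox2 KO and 0.147 RPKM in Sox2 WT.

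The interleukin 17, 22 and 23 genes listed were at or near 0. Il17a and Il22 were listed at 0 in all 6 libraries, and Il17f, Il17c and Il23a were at most 0.0756 RPKM in Sox2 KO and 0.122 RPKM in Sox2 WT. Their receptors were present: Il22ra1 was at 4.55, 4.42 and 1.69 RPKM in Sox2 KO libraries 1 to 3 and 1.67, 2.53 and 6.18 RPKM in Sox2 WT libraries 1 to 3, high in the same 3 libraries as Duox2. Of 18 genes in this list 10 were tested and 0 passed. Above 0 lay 8 log2 fold changes (median 0.08), beside 56.8% of all genes tested, but 2 under epithelial scaling, beside 15.6%. Nfkbiz, a nuclear IkB protein that acts downstream of interleukin 17, was at 9.95, 7.92 and 9.32 RPKM in Sox2 KO and 6.40, 6.55 and 7.01 RPKM in Sox2 WT (log2 fold change 0.41, SE 0.116, limma adjusted p = 0.938). The fucosyltransferase Fut2 (0.23, SE 0.113) and the receptor Il17rc (0.13, SE 0.121) came next, each with a limma adjusted p = 1.00, and the sign of Il17rc turned under epithelial scaling.

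Sensors of bacteria had 19 of 20 listed genes tested, of which 0 passed. Above 0 lay 14 log2 fold changes (median 0.09), beside 56.8% of all genes tested. Epithelial scaling left 5 of 19 positive, beside 15.6% of all genes. Tlr2, a receptor for bacterial lipoproteins, was at 2.25, 2.07 and 1.62 RPKM in Sox2 KO libraries 1 to 3 and 3.07, 2.51 and 2.77 RPKM in Sox2 WT libraries 1 to 3 (log2 fold change -0.41, SE 0.143). Tlr5, the flagellin receptor, was at 0.819, 0.549 and 0.544 RPKM in Sox2 KO and 1.45, 0.983 and 0.932 RPKM in Sox2 WT (-0.51, SE 0.180). Tlr1 was above in all 3 Sox2 KO libraries (0.33, SE 0.147). These 3 had no overlap between the groups, 3 of 19 against 7.08% of all genes, and each had a limma adjusted p = 1.00.

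For each tested gene the most similar expressed genes were found by Pearson r of log2(RPKM + 0.5) over the 6 libraries. Genes with placeholder names, such as Gm and a number, and immunoglobulin or T-cell receptor segments were left out. This is a description in which many genes reach a high r because there are 6 points. Duox2 was most like Slu7 (0.988), Wdpcp (0.987) and Clec7a (0.983), and Duoxa2 most like Odf2l (0.994), Rfk (0.992) and Ehhadh (0.989). Reg3b was most like Gpr35 (0.996), Entpd8 (0.994) and P4hb (0.989), and Reg3g most like Fabp2 (0.978), Ica1 (0.977) and Btbd10 (0.976). Lyz1 was most like Aard (0.996), Emp1 (0.988) and Tmem57 (0.975), and Lyz2 most like Stk4 (0.988), Cybrd1 (0.987) and Rnf217 (0.987). Dmbt1 was most like Sntb2 (0.993), Cep135 and Sbno1 (both 0.990), and Pigr most like Tma7 (0.994), F630040L22Rik (0.977) and Smg9 (0.976). The 8 tested genes form 28 pairs, of which the Duox pair had the highest r, at 0.976. Next came Duoxa2 with Reg3b at 0.896, while Dmbt1 with Reg3b was lowest, at -0.301.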

How the data were processed

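RNA of 3 Sox2 KO and 3 Sox2 WT pylorus libraries was measured. The deposited values are RPKM computed by the authors; CASAVA 1.7, STAR and the build mm10 are named in the submitters' processing notes, while neither counter, annotation nor strandedness is given in the sources used here. The 6 single-library tables equal the columns of the series table. Coordinates are from GENCODE M21 (GRCm38, which is mm10), matched by identifier for 37607 of 39179 rows, and promoter windows are from RefSeq GRCm38.p6, found for 9 of the 10 genes.

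The test on log2(RPKM + 0.5) used limma 3.58.1 (R 4.3.3; variance trend, Benjamini-Hochberg adjustment) over the 14045 genes with a mean of at least 0.5 RPKM, keeping the highest row of each symbol; filtering on a mean lets a gene pass through 1 group. The low values were whole multiples of 1 read per gene and library: the smallest whole reads that fit all 6 libraries were taken, and this held for 100% of 23538 genes with any reads, to within 1e-06. A common factor of the true reads would be lost, so reads are lower bounds. The fit was run on simulated data with known changes and the same small spread between libraries for every gene. That run does not bear on genes that vary widely between libraries, such as Duox2 and Duoxa2. Members, gene lists and tests were chosen with earlier results of these data known. From each list the text names members past the threshold or else the 3 with the smallest p. For each tested member it names the 3 genes of highest r with a mean of at least 1 RPKM. Placeholder gene names and immunoglobulin or T-cell receptor segments were left out of that choice. Other genes were chosen after their values were seen. Intervals on reads are exact Poisson. Values of 2 listed genes are not reported here, though counts over their lists include them.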

Additional observations from a re-analysis of the deposited data

How the results depend on the processing

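The calls, the members and the listed genes named by rule were recomputed under up to 20 alternatives, and the ratio of Reg3b to Reg3g under 7. Other genes named after their values were seen, other ratios and correlations were not. Under all 20, 0 of the 10 mucosal defence genes were called, with limma adjusted p-values from 0.700 for Duox2 without Sox2 KO replicate 3 to 1.00, and Duox2, Duoxa2, Reg3b, Reg3g, Dmbt1 and Pigr kept the sign of their log2 fold changes wherever they were tested. Reg3b and Lyz1 fell under a filter at a mean of 1 RPKM. Signs turned for Lyz1, Lyz2, Rnase4, Rnase1 and Il17rc. Lyz1 had a log2 fold change of 0.55 with sex as a covariate and in male libraries alone, and ran from -0.70 to 0.08 without 1 library. Lyz2 had 0.11 with sex as a covariate and in male libraries alone, and ran from -0.24 to 0.29 without 1 library. Rnase4 had -0.03 under quantile normalization, -0.10 under epithelial scaling and -0.02 with voom on recovered reads, and ran from -0.21 to 0.32 without 1 library; Rnase1 ran from -0.25 to 1.46, and Il17rc had -0.03 under epithelial scaling. The cause was not tested.

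The number of genes called over the whole table was 4. It was 20 under epithelial scaling, 11 higher and 9 lower. That scaling moved the median log2 fold change of all genes by -0.158. It also changed the SE of single genes, from 0.147 to 0.248 for Sox2 and from 0.549 to 0.366 for Itln1. The number called was 1 with sex as a covariate, 8 with voom on recovered reads, 8 at an adjusted p under 0.1, and 1 to 8 without 1 library. Median-of-ratios and quantile scaling each called 1 higher and 2 lower gene, beside 2 higher and 2 lower. The fit with a replicate block called 1. Same-numbered libraries correlated at 0.0088, 0.097 and -0.074 in their deviations from the group means, so the numbers were not taken as pairs. Sox2 did not pass in male libraries alone, which hold 1 Sox2 WT library, at a log2 fold change of -3.82 (limma adjusted p = 0.154), and passed otherwise. Nox1 and Ang4 are limited by depth, and Reg3b, Reg3g and Lyz1 rest on 3 to 61 reads a library.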
